A study of Mus musculus with 24 samples.

Results

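The cytosolic ribosomal protein genes were followed in the cortex of 24 mice that all carried 5xFAD, a set of human transgenes that leads to amyloid plaques. The members were the genes of the count table whose symbols begin with Rpl or Rps and a number, together with Rplp0, Rplp1, Rplp2 and Rpsa. Rps6 kinase genes and rows marked as pseudogenes were left out, and a mean of at least 1 CPM (a gene's counts relative to the library total) over all libraries was required. The symbols matched 88 of 24421 genes, and 82 passed. By symbol, 41 encode proteins of the large subunit, 3 encode the P stalk, 31 encode proteins of the small subunit, and 7 are paralogs or proteins that are no standard subunit. The mice were 7.5 months old, with 1 library per mouse and 6 mice in each of 4 groups. WT mice carried 5xFAD alone, Trem2KO mice lacked Trem2, Plcg2KO mice lacked Plcg2, and Plcg2HET mice were labelled heterozygous for the Plcg2 knockout. Sexes were balanced at 3 and 3 except in Plcg2KO, where 4 of the 6 were male. Libraries are named by group, sex letter and number, as in WT F1. No mice without 5xFAD were analysed here, and the targeted exons are not stated in the labels.

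The ribosome is built from ribosomal RNA and about equal amounts of each ribosomal protein, so cells need the proteins in balanced supply. The small subunit reads the mRNA, the large subunit joins the amino acids, and the P stalk on the large subunit recruits the translation factors. Transcripts of these genes typically begin with a run of cytosines and thymines known as the terminal oligopyrimidine (TOP) motif, through which the mTOR pathway controls their translation. Free Rpl5 and Rpl11 bind the p53 inhibitor Mdm2 when ribosome assembly is disturbed. In brain, ribosomal protein transcripts are abundant in all cell types and are also carried into the processes of neurons and glia.

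Sequences at the transcription start are shown for the members on which the comparisons turn, and for those named from the start for their known roles, where RefSeq (GRCm38.p6) places a start at the same base as the count table. Each window holds 10 bases before the start and the first 20 transcribed bases, 30 in all, on the strand of the gene. Capitals mark the longest run of C and T that touches the 20 bases around the start, as far as it lies in the window.
Rpl18: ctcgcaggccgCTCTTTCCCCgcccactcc
Rpl4: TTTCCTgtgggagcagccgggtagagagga
Rpl23: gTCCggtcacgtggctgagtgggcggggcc
Rps23: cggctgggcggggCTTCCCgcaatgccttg
Rpl41: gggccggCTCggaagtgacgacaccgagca
Rpl10a: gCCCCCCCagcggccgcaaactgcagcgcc
Rpl5: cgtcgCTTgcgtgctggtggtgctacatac
Rps6: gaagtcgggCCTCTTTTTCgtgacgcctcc
Rplp0: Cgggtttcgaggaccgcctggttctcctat
Rpsa: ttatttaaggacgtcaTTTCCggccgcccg

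The windows lie at chr7:45718061-45718090 (plus strand) for Rpl18, chr9:64173377-64173406 (plus) for Rpl4, chr11:97782420-97782449 (minus) for Rpl23 and chr13:90923112-90923141 (plus) for Rps23. Those of Rpl41 and Rpl10a lie at chr10:128549149-128549178 (minus) and chr17:28328461-28328490 (plus). The others lie at chr5:107900518-107900547 (plus) for Rpl5, chr4:86857348-86857377 (minus) for Rps6, chr5:115559457-115559486 (plus) for Rplp0 and chr9:120127756-120127785 (plus) for Rpsa. The run was 10 bases long in Rpl18 and Rps6 and 14 in Rpl4, of which 6 lie in the window, and 5 in Rplp0, of which 1 does, but 3 in Rpl23, Rpl5 and Rpl41. The marked run ends before the first transcribed base in Rpl4, Rpl23, Rpl41, Rpl10a, Rpl5 and Rplp0. It begins after that base in Rpl18, Rps23 and Rpsa. A run marked or counted here is therefore not read as a TOP motif, and the start sites themselves were not tested. A promoter window of 300 bases was at hand for 62 of the 82 members, and in 50 it started from the same base as the count table. In these 50, a run of at least 8 bases was present in 19 (38.0%), against 13.7% of 32851 promoter windows of all genes. The ETS core CCGGAAG occurred on either strand in 32.0% of the 50 against 8.86% of all windows, the YY1 core AAGATGG in 10 of the 50 against 6.34%, and TATAAA in 4 of the 50 against 13.6%. The ETS and YY1 cores can share their bases AAG, and a match describes letters, not a bound factor.

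Levels are compared between genes only per kilobase of exon. The median member stood at 277 CPM per kb. The highest was Rps15 at 968 CPM per kb, a small-subunit protein near the decoding site, followed by Rps14 at 719, Rpl41 at 637, which encodes the smallest ribosomal protein, and Rplp1 at 563, an acidic protein of the stalk. The lowest were Rpl34 at 2.56 and Rps27 at 3.88 CPM per kb, then the copy Rpl37rt at 7.99 and Rps19bp1 at 15.99, which encodes a protein that binds Rps19. Among the 73 subunit genes with less than 50% of exon bases shared with another gene, the lowest level was 39.2 CPM per kb. Counts were ample, with at least 1000 in every library for 75 of the 82.

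The low level of Rpl34 and Rps27 went with shared exons. Rpl34 shared 59.9% of its exon bases with the row Rpl34-ps1, and Rps27 shared 60.0% with Rps27rt, in both cases on the same strand. Rpl34 was the member closest to the limit, at 1.76 CPM, and Rpl30, at 0.975 CPM, lay just outside it and shared 76.0% with Gm12191. Rpl26 and Rps27rt had 0 counts in all 24 libraries and shared 95.8% (with Gm15772) and 100% of their exon bases. In the authors' second table the expected counts for Rpl26 ran from 342 to 1869 and those for Rps27rt from 2854 to 12376. The part of exon sharing in these low counts was not tested. Rpl5, Rpl31 and Rps25 shared 47.7%, 33.1% and 29.4% of their exon bases with a gene on the opposite strand (Fam69a, Tbc1d8 and Ccdc84), and no source used here gives the strand setting of the counting. Over all members the ratio of expected counts to counts had a median of 1.01. It was 8.75 in Rpl34, 2.58 in Rps6, 1.97 in Rpl15 and 0.604 in Rplp1. Many ribosomal protein genes have processed pseudogenes of near-identical sequence, so the values of single members carry an uncertainty that the replicates do not show.

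Total counts over all genes ran from 36.3 M to 83.0 M per library (M for mega). Plcg2 stood at 0.739 to 1.205 CPM in Plcg2KO and 7.73 to 15.2 in WT, and Trem2 at 4.59 to 7.45 in Trem2KO and 46.5 to 119 in WT. In the mice labelled Plcg2HET, Plcg2 ran from 5.89 to 19.8 CPM (log2 fold change against WT 0.02, SE 0.17, adjusted p = 0.951), so its level does not mark them as heterozygous, and directions given for this group rest on its label. Rn45s, the ribosomal RNA precursor, was highest in Plcg2HET F3, with 29.0% of that library, then in WT F1 (9.59%) and Plcg2HET F1 (5.29%), and it was at most 3.50% elsewhere.

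The 82 genes together took between 0.959% and 2.67% of all counts in a library. The share was 1.87 ± 0.51% in WT, 1.69 ± 0.17% in Trem2KO, 1.67 ± 0.13% in Plcg2KO and 1.56 ± 0.52% in Plcg2HET (mean ± SD, n = 6 each). The 4 groups overlapped, and the range within WT and within Plcg2HET was wider than any difference between group means. In WT the males lay between 1.45% and 1.55%, whereas F1 and F3 stood at 2.36% and 2.67% and F2 at 1.68%. In Plcg2HET, M1 stood at 2.32% and M2 and F1 at 1.82% and 1.83%, against 0.959% in M3, 1.11% in F2 and 1.29% in F3. Plcg2HET F3 is the library with 29.0% Rn45s. With Rn45s left out of the totals the shares were 1.94 ± 0.56%, 1.73 ± 0.17%, 1.70 ± 0.13% and 1.68 ± 0.53% in the same order of groups. In bulk tissue, fewer cells of a type and less RNA per cell cannot be told apart.

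**Figure D1:**
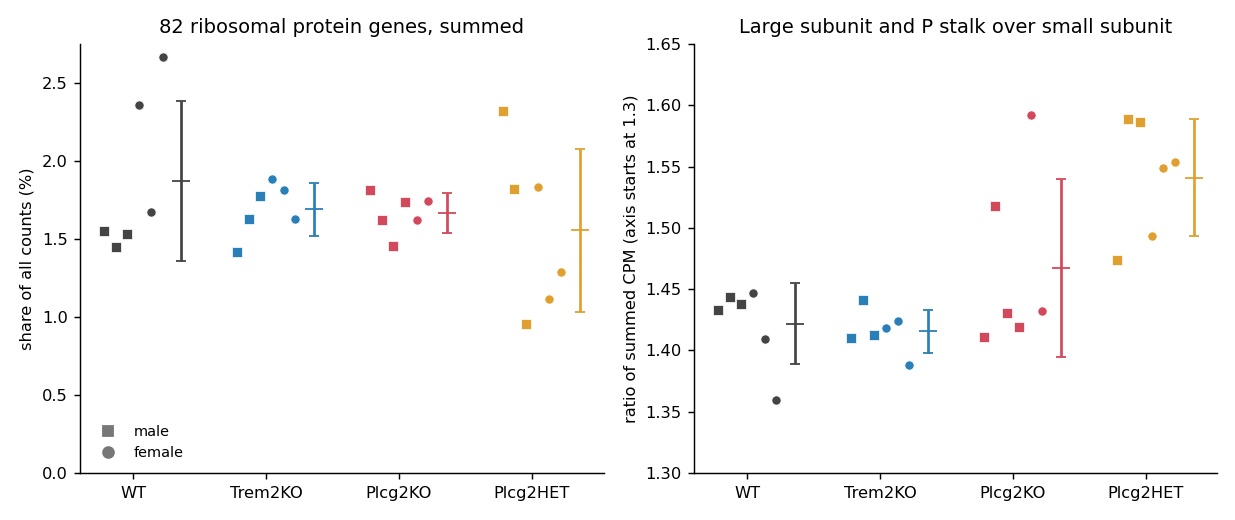
Left, share of all counts (percent) taken by the 82 ribosomal protein genes in each library, and right, ratio of summed CPM of large subunit and P stalk genes to small subunit genes, by group (n = 6 each; squares male, circles female; bars mean ± SD). WT F1 and F3 and Plcg2HET M1 lie above 2.3% on the left, and all Plcg2HET libraries lie at or above 1.47 on the right.

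The members moved together from library to library. Each library's deviation of a gene was taken as its log2(CPM + 0.5) less the mean of that gene over the 24 libraries. In Plcg2HET M1, 82 of 82 members lay above their own mean, as did 81 in WT F3 and 80 in WT F1, whereas only 2 did so in Plcg2HET M3 and 2 in Plcg2HET F2. The median deviation of the members was 0.62 in WT F3, 0.49 in WT F1 and 0.48 in Plcg2HET M1, and it was -0.81 in Plcg2HET M3 and -0.59 in Plcg2HET F2. In the other 19 libraries it lay between -0.29 and 0.16. A first principal component held 68.0% of the members' variance, and 14.2% of that variance lay between genotype means. For the library medians the part between genotype means was 4.55%.

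**Figure D2:**
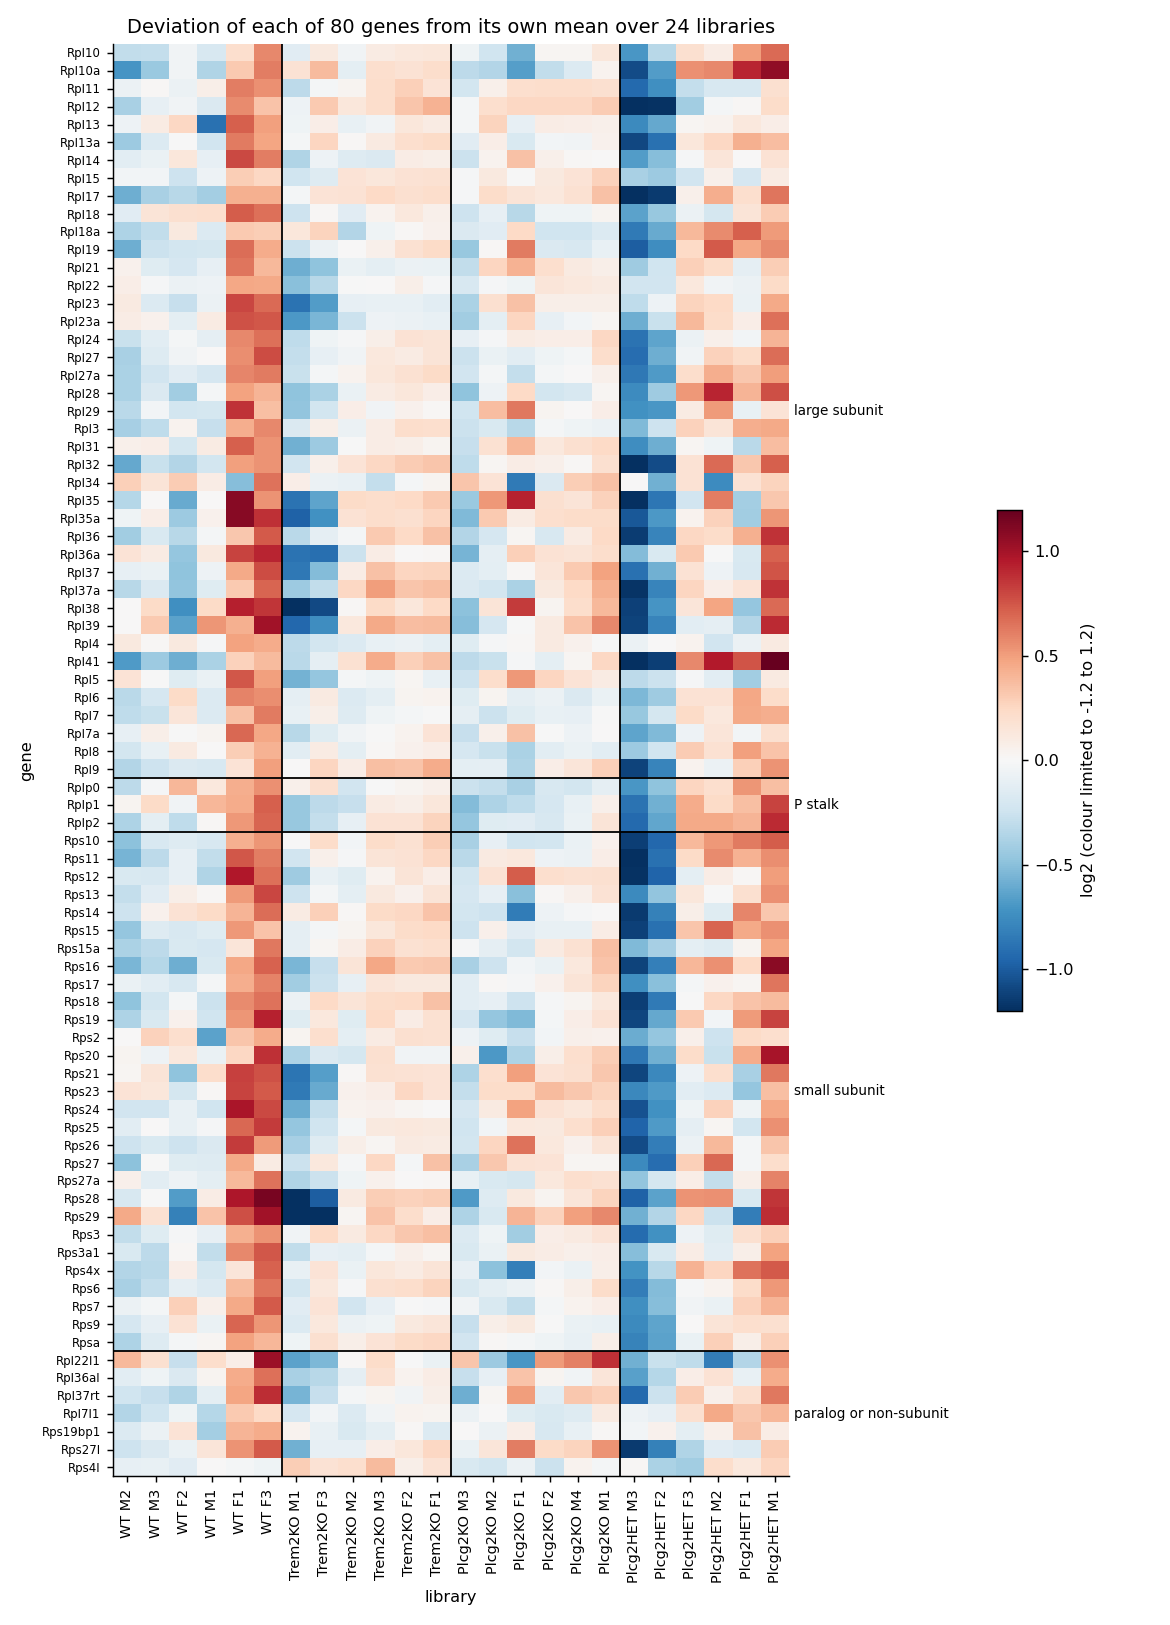
Deviation (log2) of 80 of the 82 genes (rows, in blocks by role) from its own mean over the 24 libraries (columns, by group and within a group by the median deviation). WT F1, WT F3 and Plcg2HET M1 are high across nearly all rows, and Plcg2HET M3 and F2 are low.

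Over the 3321 pairs of members the median correlation across the 24 libraries was 0.690. The deviation of 50 of 82 members correlated with the median of the other members at 0.8 or more, led by Rpl27 at 0.978, Rpl24 at 0.967 and Rps6 at 0.959, the S6 kinase substrate. Large-subunit and small-subunit sums correlated at 0.979. Those with r under 0.5 were Rpl34 at 0.138, whose exons are shared, Rps4l at 0.248, Rps19bp1 at 0.412, Rpl22l1 at 0.445 and Rpl4 at 0.486. Of 16234 tested genes outside the family, 150 (0.924%) reached 0.8. The nearest in pattern were Mrpl13 at 0.945 and Mrpl23 at 0.938, both of the mitochondrial ribosome, then Sepw1 at 0.934, Bloc1s1 at 0.934 and Polr1d at 0.931. These 150 had a median exon length of 795.5 bases and the members one of 717.5, against 2870 for all tested genes outside the family. The 10 genes at -0.8 or lower had a median of 6432.5 bases, with Ralgps1 at -0.862 and Nsd1 at -0.836. All these values describe the same 24 libraries and share their depth and composition.

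The common level of the members was set against 4 properties of each library, all as descriptions over 24 libraries. The length trend is the Spearman correlation, across the tested genes outside the family, between exon length and a gene's deviation in that library, and it is negative where short genes are high. The median deviation of the members correlated with it at r = -0.836 (rho = -0.770), and at r = -0.760 without WT F1 and WT F3, which lie farthest from the median trend. Within groups r was -0.885 in WT, -0.348 in Trem2KO, -0.976 in Plcg2KO and -0.970 in Plcg2HET (n = 6 each). The length trend was -0.423 and -0.461 in WT F1 and F3, 0.437 and 0.412 in Plcg2HET M3 and F2, and between -0.279 and 0.274 in the other 20. With the Rn45s share the correlation was r = 0.181 (rho = 0.223), and r = 0.113 without the 3 libraries above 5%. With the trend with GC content, defined in the same way, it was r = 0.342 (rho = 0.343). Within groups that value was 0.933 in Plcg2HET and between -0.260 and 0.071 in the other 3. With total counts it was r = -0.428 (rho = -0.500). The length and GC trends were themselves correlated over the 24 libraries (r = -0.612, rho = -0.669), and their parts in the common level were not separated. The common level thus followed the length trend of other genes closely and the Rn45s share weakly, and the part of RNA quality or library preparation in this was not tested.

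**Figure D3:**
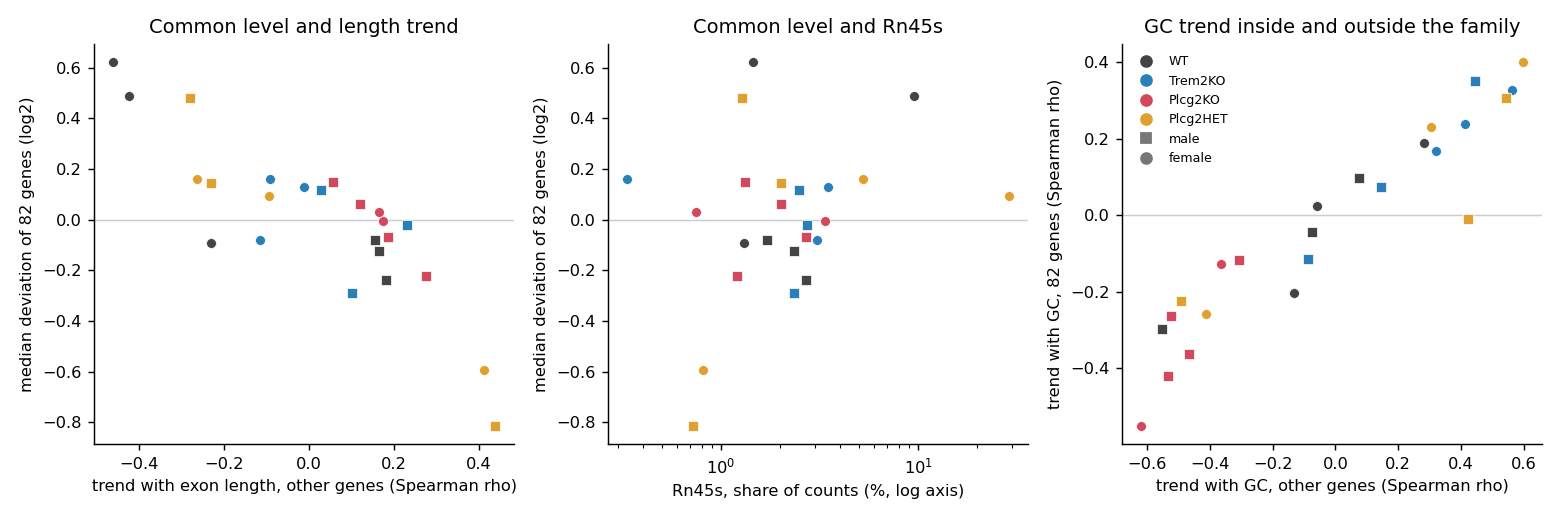
Left and centre, median deviation of the 82 genes (log2) in each library against the length trend of other genes and against the Rn45s share (log axis), and right, Spearman correlation with GC content among the 82 genes against the same among other genes (one point per library, coloured by group; squares male, circles female). Points fall along a line on the left (r = -0.836) and on the right (r = 0.945) but not in the centre (r = 0.181).

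With the common level removed, members differed by GC content in step with other genes. After the library median was subtracted, the correlation of the members' deviations with their GC content ran from -0.550 to 0.4004 over the libraries. It followed the GC trend of the genes outside the family at r = 0.945 (rho = 0.958, 24 libraries). In Plcg2KO the GC trend of other genes was negative in all libraries, from -0.619 to -0.308, and in Trem2KO it ran from -0.086 to 0.562. The second component held 13.4% of the members' variance and correlated with the GC trend at r = -0.782 (rho = -0.749). It set Rps29 and Rpl38, small proteins of either subunit, against Rpl10a, all chosen here after their values were seen. Their GC contents were 53.1%, 53.8% and 55.7%, and their exon lengths 390, 369 and 830 bases, so they are no plain contrast of GC. Over the 82 members the weight on this component correlated with GC content at r = -0.355 (rho = -0.371). Rps29 stood at 38.3 CPM in Trem2KO M1, 41.1 in Trem2KO F3, 61.5 in Plcg2HET F1 and 62.4 in WT F2, against 73.2 to 221 in the other 20 libraries. Those 4 libraries come from 3 genotypes. The highest level of Rps29 was 5.76 times its lowest, and with all libraries it was called in no comparison.

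Each comparison was tested gene by gene with edgeR over all 24 libraries, with a term for sex and adjustment over 16316 genes, and a gene is called at an adjusted p under 0.05. The WT libraries serve in 3 of the 4 comparisons, which therefore share them. Members had larger standard errors than other genes, with a median of 0.20 on the log2 scale against 0.13. WT F1, WT F3, Plcg2HET M3 and Plcg2HET F2 have a length trend beyond 0.4 in size among genes outside the family. They are also the 2 highest and the 2 lowest libraries for the members. Each comparison is therefore also given for the other 20 libraries, a choice made after the data were seen. That choice removes high values from WT and low values from Plcg2HET, so the direction it gives is in part set by it.

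In Plcg2KO against WT the members stood slightly lower with all libraries and slightly higher in the 20. With all libraries 0 of 82 were called higher (5.44% of all genes tested) and 1 lower (7.63%), and the median log2 fold change was -0.10, with 65 below 0. At an unadjusted p under 0.05 there were 6 (7.32%), against 27.1% of all genes. Rpl18, a large-subunit protein, stood at 82.1, 103 and 149.6 CPM in WT (lowest, median, highest) and at 71.4, 85.5 and 91.8 in Plcg2KO. The high WT values were those of F1 and F3, and the groups overlapped. Its log2 fold change was -0.42 (SE 0.14, adjusted p = 0.0491), and -0.22 in the 20 libraries (adjusted p = 0.124). The call was also lost in 17 of the 24 fits that each left out 1 library. In the 20 libraries, 8 members were called higher (7.01% of all genes) and 2 lower (8.61%), and the median was 0.16.

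The 2 called lower in the 20 libraries were genes of the P stalk. Rplp0, the base of the stalk, ran from 175.8 to 214 CPM in Plcg2KO with a median of 195. In WT it ran from 185 to 339 with a median of 278 over all libraries. In the 4 WT libraries among the 20 it ran from 185 to 304 with a median of 240. With all libraries its log2 fold change was -0.42 (SE 0.16, adjusted p = 0.0744), and in the 20 it was -0.30 (SE 0.10, adjusted p = 0.0308). Rplp1 stood at 176, 213 and 264 CPM in Plcg2KO and 246, 315 and 418 in WT over all libraries. In the 4 WT libraries among the 20 it stood at 246, 277 and 334. Its values were -0.53 (SE 0.20, adjusted p = 0.0798) and -0.38 (SE 0.13, adjusted p = 0.0466). Rplp2, the partner of Rplp1, stood at -0.23 (SE 0.23, adjusted p = 0.557) with all libraries. It was not among those called lower in the 20. There it ran from 84.3 to 130 CPM in Plcg2KO and from 90.1 to 118 in WT, so the stalk genes did not all stand lower. Among those called higher, Rpl17 at 0.61 (SE 0.09, adjusted p = 6.56e-05) and Rpl12 at 0.38 (SE 0.10, adjusted p = 0.0142) came first.

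In Trem2KO against WT, 1 member was called higher (7.56% of all genes tested) and 3 lower (8.16%), with a median of -0.15 and 57 of 82 below 0. Rpl4, which lines the exit tunnel of the large subunit, stood at 422, 462 and 594 CPM in WT and 342, 386 and 405 in Trem2KO. The groups did not overlap, and the log2 fold change was -0.36 (SE 0.08, adjusted p = 0.00373). In the 20 libraries it was -0.24 (adjusted p = 0.0350), and it was called in all 10 of the other settings tried and in all 24 fits that each left out 1 library. Rpl23a, at the mouth of the tunnel, stood at 153, 178 and 283 CPM in WT and 103, 148 and 159 in Trem2KO (-0.57, SE 0.18, adjusted p = 0.0268). Rpl23 stood at 159, 196 and 338 in WT and 104.5, 178 and 182 in Trem2KO (-0.52, SE 0.18, adjusted p = 0.0428). In both genes WT F1 and F3 were high and Trem2KO M1 and F3 low, and neither was called in the 20 libraries (-0.30 and -0.19, adjusted p = 0.120 and 0.412). With 1 library left out the calls were lost in 4 and 11 of 24 fits. Rpl5, which binds 5S ribosomal RNA, stood at -0.41 (SE 0.14, adjusted p = 0.0506) and shares exons with Fam69a.

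In the 20 libraries 17 members were called higher in Trem2KO (6.69% of all genes) and 1 lower (7.72%), and the median was 0.11. Rpl17 ran from 393 to 472 CPM in Trem2KO against 267 to 316 in the 4 WT libraries (0.61, SE 0.10, adjusted p = 0.000179). Rpl41 stood at 0.71 (SE 0.14, adjusted p = 0.00169). Rpl4, the 1 called lower there, moved against most of the family, and 35 of 82 members had the other sign than with all libraries.

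In Plcg2HET against WT, 0 of 82 were called higher (10.9% of all genes tested) and 5 lower (7.13%), with a median of -0.15. Of these 5, 4 are described. Rpl11, the partner of Rpl5, stood at 129, 139 and 207 CPM in WT and 70.5, 114.5 and 155 in Plcg2HET (-0.51, SE 0.15, adjusted p = 0.0208). Rpl18 stood at 57.4, 81.9 and 112 CPM in Plcg2HET (-0.44, SE 0.14, adjusted p = 0.0283), and Rpl4 at 362, 417 and 457 (-0.24, SE 0.08, adjusted p = 0.0479). Rps23, of the decoding centre, fell outside the rule for named genes and was chosen after its value was seen (-0.57, SE 0.20, adjusted p = 0.0493). The call of Rpl4 was kept in 2 of the 10 other settings and lost in 18 of the 24 fits that each left out 1 library. That of Rps23 was kept in 3 of 10 and lost in 19 of 24. For Rpl11 and Rpl18 the call was kept in 7 of 10 settings and lost in 2 and 4 of the 24 fits.

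Without the 4 libraries the direction turned. In the remaining 4 WT and 4 Plcg2HET libraries, 38 of 82 members were called higher (20.6% of all genes) and 0 lower (21.7%), none of the 4 above was called (adjusted p from 0.297 to 0.757), and the median was 0.33, with 74 above 0. Of the 82 members, 51 had the other sign than with all libraries. The 38 were 20 of 44 large-subunit and stalk genes, 16 of 31 small-subunit genes and 2 of 7 paralogs. Rpl41 ran from 394 to 663 CPM in these Plcg2HET libraries and from 164 to 203 in WT (1.47, SE 0.16, adjusted p = 6.21e-07). Rpl10a ran from 156 to 224 against 65.3 to 104 (1.16, SE 0.14, adjusted p = 3.39e-06), and Rps10 from 196 to 246 against 106 to 134 (0.82, SE 0.10, adjusted p = 4.41e-06). Rpl41 is among the genes named for its level, and Rpl10a and Rps10 were chosen after their values were seen. The length trend still differed in this smaller set, from -0.279 to -0.095 in Plcg2HET and from -0.229 to 0.181 in WT. Leaving out 1 library at a time gave 15 members called without Plcg2HET M1, all lower, and 1 without WT F3. Without WT F1 2 were called, of which 1 was higher, and without Plcg2HET F3 2. None was called by edgeR when only these 2 groups were fitted, or without the 3 libraries above 5% Rn45s, whereas DESeq2 called 5. With all libraries 15 (18.3%) had an unadjusted p under 0.05, against 31.7% of all genes. For the fits with 1 library left out, the 2 groups alone, the Rn45s limit and DESeq2, the shares of all genes called are not given here. Their counts are therefore not read as results about the members.

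Between the knockouts, 0 of 82 members were called higher in Plcg2KO than in Trem2KO (7.63% of all genes tested) and 1 lower (8.82%), and the median was 0.01. At an unadjusted p under 0.05 there were 5 (6.10%) against 34.9% of all genes. None of the 4 libraries belongs to these groups, but the spread is estimated over all groups. In the 20 libraries the median standard error of the members was 0.11, and 6 members were called higher (18.4% of all genes) and 6 lower (16.3%), with a median of -0.00. Rpl21 at 0.38 (SE 0.11, adjusted p = 0.00985) and Rpl5 at 0.38 (SE 0.12, adjusted p = 0.0142) led those higher. Rps4l led those lower, followed by Rpl10a at -0.44 (SE 0.12, adjusted p = 0.00585). Fold changes in this comparison correlated with GC content at rho = -0.421 over the 82 members and -0.654 over other genes. The 27 members lowest in GC (up to 49.2%) had a median of 0.14 and the 27 highest (from 53.3%) one of -0.11. Against WT, rho over the members was -0.220, 0.232 and 0.199 for Plcg2KO, Trem2KO and Plcg2HET.

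**Figure D4:**
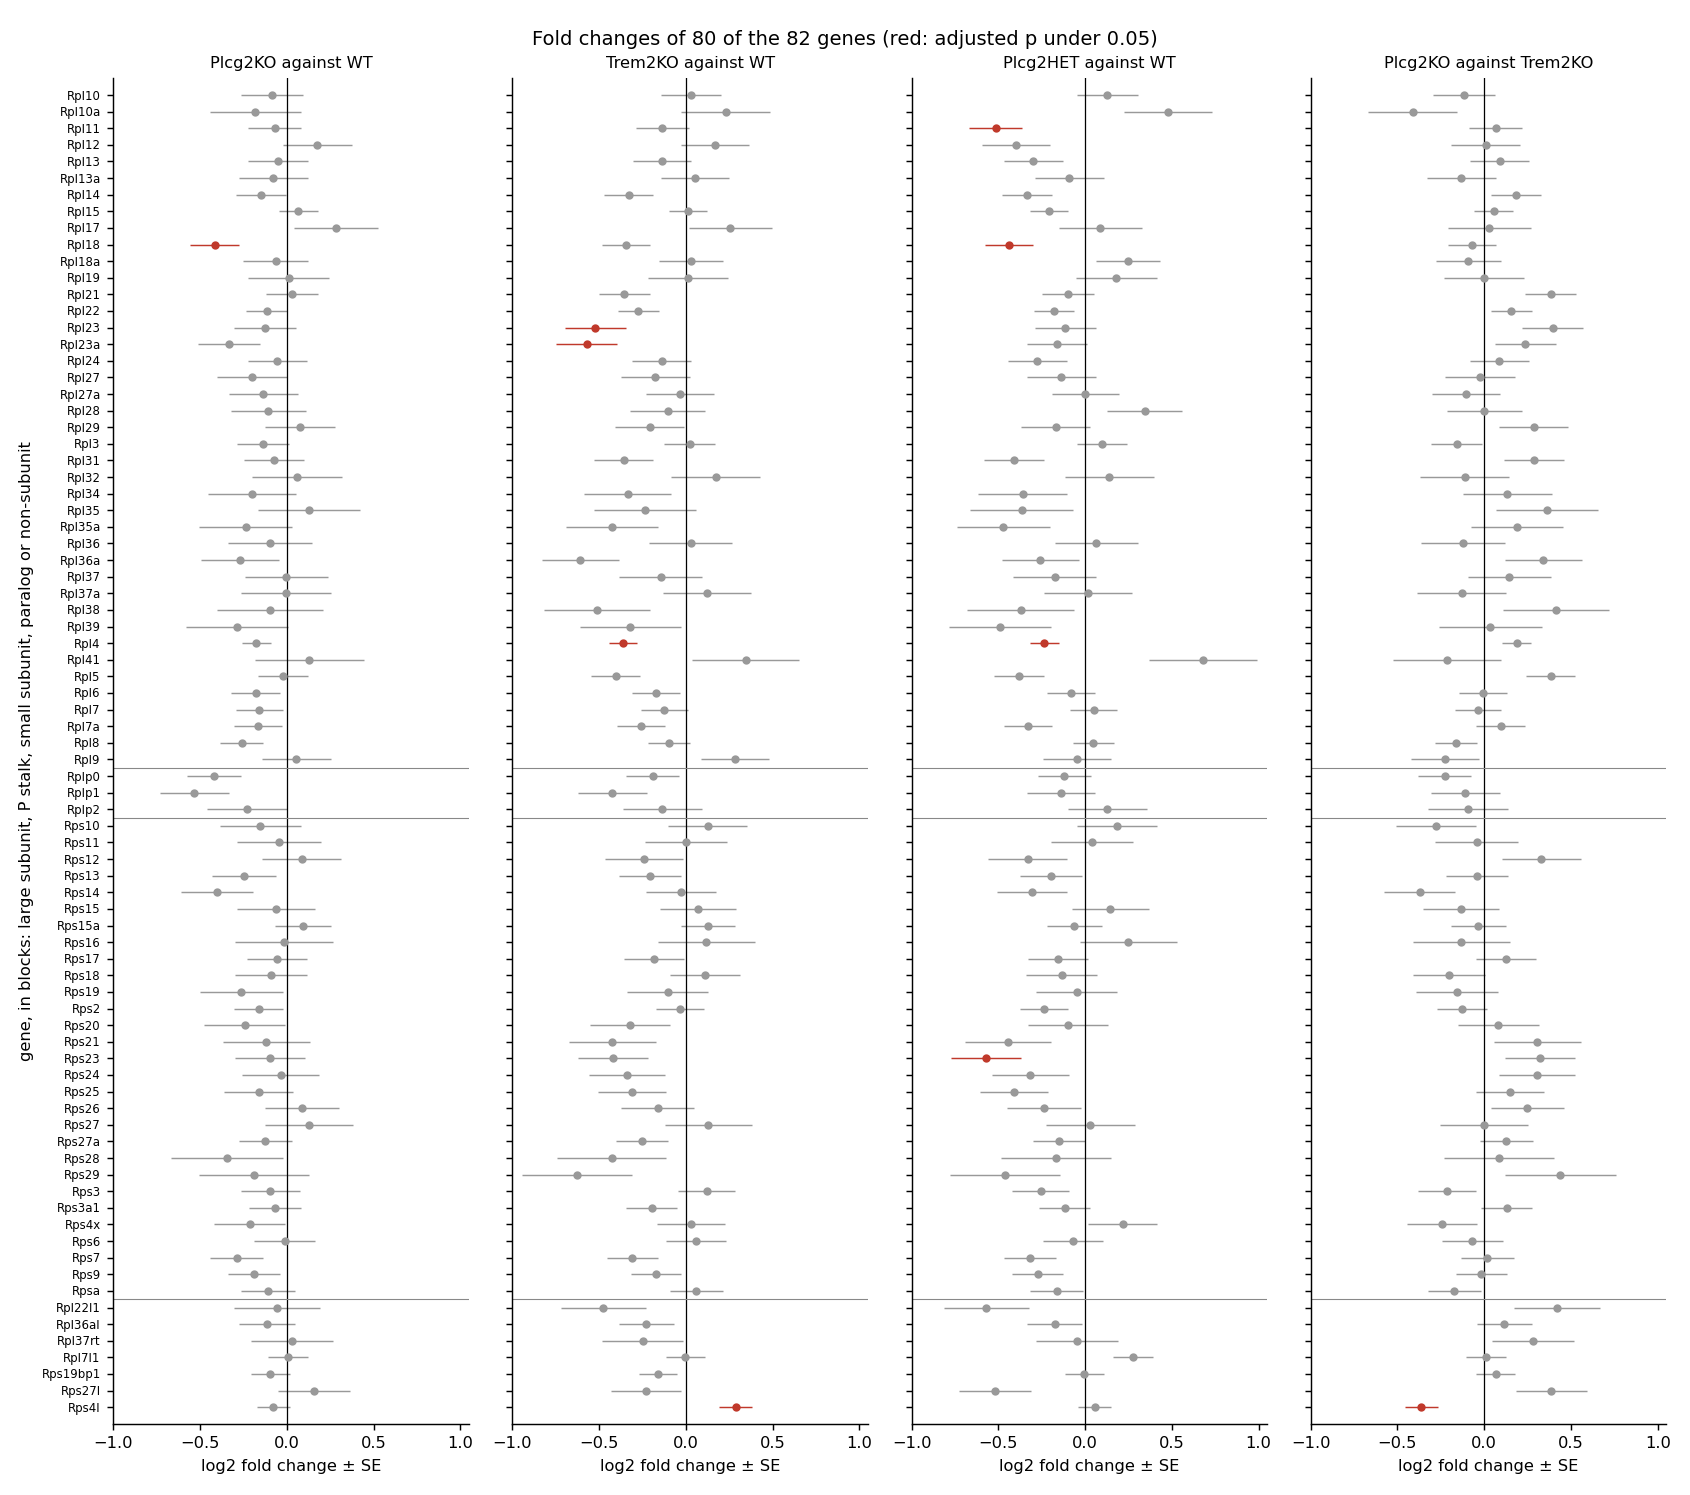
Log2 fold change with its standard error for 80 of the 82 genes in the 4 comparisons over all 24 libraries (rows in blocks by role; red, adjusted p under 0.05 by edgeR). Most points lie left of 0 in the 3 comparisons against WT, and 10 are red.

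**Figure D5:**
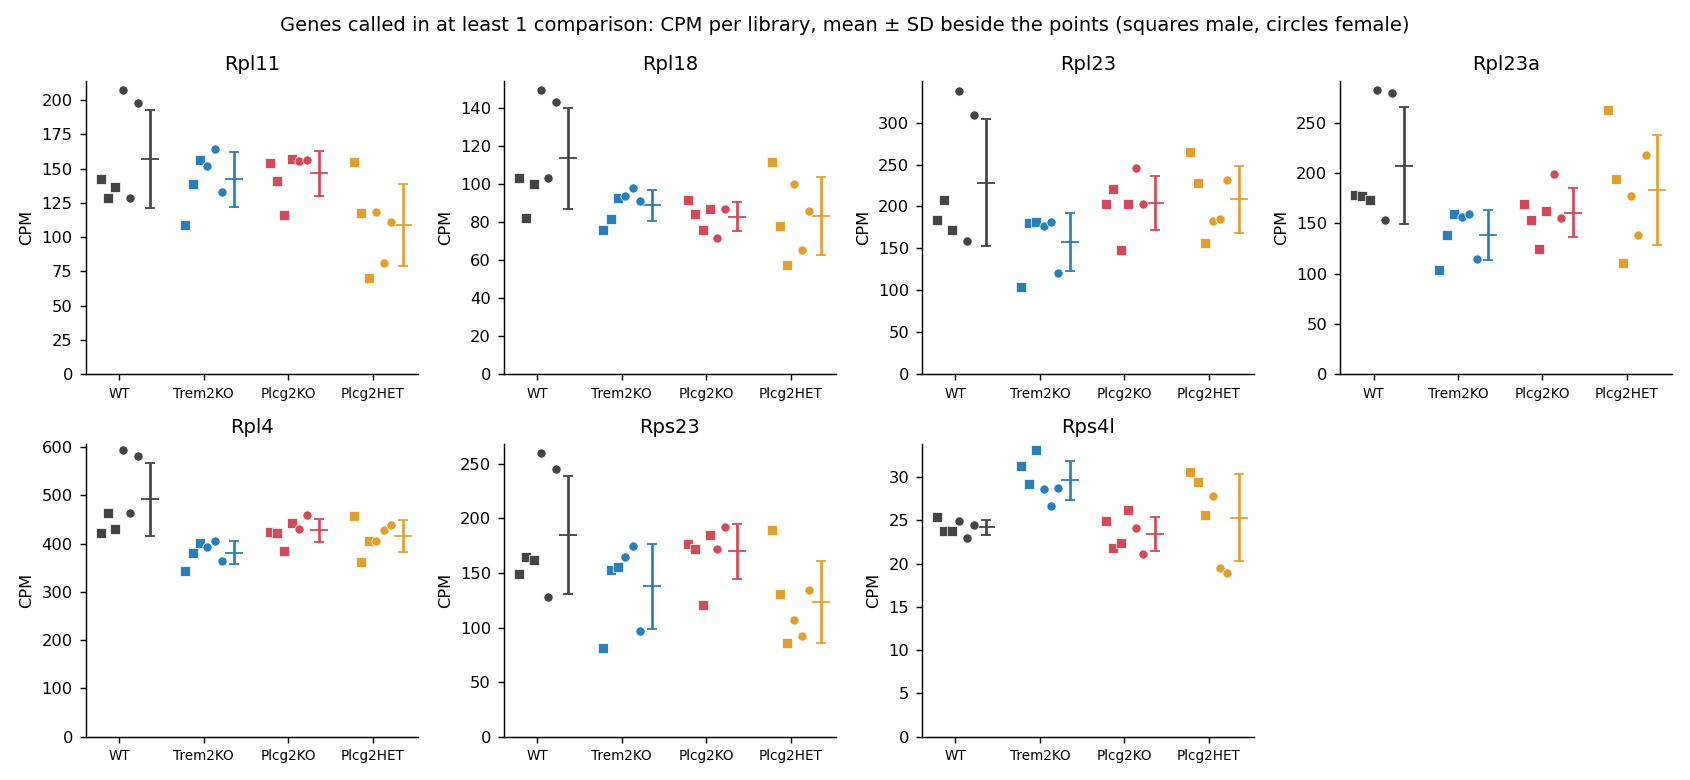
CPM per library of 7 genes called in at least 1 comparison over all 24 libraries, by group (n = 6; squares male, circles female; mean ± SD beside the points; axes start at 0). In 6 of the panels WT F1 and F3 lie at the top of WT, and in the panel of Rps4l the Trem2KO libraries lie above all WT libraries.

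The balance between the subunits varied little. The summed CPM of large-subunit and stalk genes was 1.36 to 1.59 times that of small-subunit genes. The ratio was 1.42 ± 0.03 in WT, 1.42 ± 0.02 in Trem2KO, 1.47 ± 0.07 in Plcg2KO and 1.54 ± 0.05 in Plcg2HET (mean ± SD, n = 6). All 6 Plcg2HET libraries, from 1.47 to 1.59, lay above all 6 WT libraries, from 1.36 to 1.45, among them Plcg2HET M3 and F2, in which nearly all members were low. In Plcg2KO, F1 at 1.59 and M2 at 1.52 stood above the other 4, at 1.41 to 1.43. Plcg2KO F1 was also low in Rps14, at 229.6 CPM against 346 to 412 in the other Plcg2KO libraries, and in Rps4x, at 188 CPM against a group median of 313. The ratio was read as a description and was not tested.

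The 7 paralogs and non-subunit genes differed in how closely they followed the family. A listed set of paralogs and non-subunits, also with 7 tested genes, overlapped with these 7 but was not the same, and lacked Rpl37rt. The median deviation of that set correlated with that of all members, which holds most of its genes, at r = 0.905. Singly, of the 7 members, Rpl36al stood at 0.897, Rpl37rt at 0.863, Rps27l at 0.829 and Rpl7l1 at 0.600 against the median of the other members. The other 3 were under 0.5. Rps4l, a copy of Rps4x, stood at 22.98, 24.1 and 25.4 CPM in WT, 26.7, 29.0 and 33.1 in Trem2KO and 21.1, 23.2 and 26.2 in Plcg2KO. Trem2KO overlapped with neither of the other groups. The log2 fold change was 0.29 in Trem2KO against WT (SE 0.09, adjusted p = 0.0386), and it was -0.36 in Plcg2KO against Trem2KO (SE 0.10, adjusted p = 0.0162). In the 20 libraries these were 0.34 and -0.36 (adjusted p = 0.0178 and 0.00285). The first call was lost in 3 of the 10 other settings and in 10 of the 24 fits that each left out 1 library (adjusted p up to 0.0925). The second held in all 24 such fits, but with offsets for GC and length it was -0.15 and not called (adjusted p = 0.376). Rps4l, whose GC content is 59.1%, lies in an intron of Tmtc1 on the opposite strand, and Tmtc1 stood at 0.02 and 0.19 in the same comparisons (adjusted p = 0.956 and 0.355). Rps4x itself stood at 0.03 and -0.24 (adjusted p = 0.943 and 0.397). Rpl22l1, the paralog that Rpl22 represses, varied 3.68-fold over the libraries and stood at -0.57 in Plcg2HET against WT (SE 0.25, adjusted p = 0.110), where Rpl22 stood at -0.18. Rps27l, a p53 target, stood at -0.52 in the same comparison (SE 0.21, adjusted p = 0.0833). Rpl7l1, which takes part in large-subunit assembly, stood at 0.28 (SE 0.11, adjusted p = 0.0909). Rpl36al and its parent Rpl36a stood at -0.23 and -0.61 in Trem2KO against WT (adjusted p = 0.362 and 0.0613). Rpl37rt and Rps19bp1 lay between -0.25 and 0.28 in all comparisons and were not called.

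Several members known for roles beyond the ribosome showed no call with all libraries. Rps6 lay between -0.07 and 0.06, Rps19, mutated in Diamond-Blackfan anemia, between -0.26 and -0.05, and Rpsa, also known as the laminin receptor, between -0.17 and 0.06. Their standard errors were 0.15 to 0.24, so changes of that size could not be detected. Rps6 ran, in the 20 libraries, from 126 to 153 CPM in WT and from 164 to 237 in Plcg2HET. Rps19 ran from 89.1 to 119 and from 113 to 202 there, and Rpsa from 379 to 497 and from 463 to 598. The choice of libraries in part sets that direction, and calls for these genes in that set are not given here. Subunit genes whose symbols lie outside the rule also showed no call with all libraries. Fau and Gnb2l1 (the older symbol of Rack1) were called in 0 of 4 comparisons each by edgeR.

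Other lists of the pathway, chosen with earlier results of these data in view, were counted over all libraries. The counts are to be read beside the shares of all tested genes called, which were 5.44% higher and 7.63% lower in Plcg2KO against WT, 7.56% and 8.16% in Trem2KO, and 10.9% and 7.13% in Plcg2HET. Nothing particular to a list is read from its count. Among 24 translation factors and other TOP genes, 3 were lower in Trem2KO against WT, with Tpt1 at -0.57 (SE 0.14, adjusted p = 0.00708). In Plcg2HET 3 were higher and 1 lower, with the elongation factor Eef2 at 0.46 (SE 0.13, adjusted p = 0.0132), and in Plcg2KO 0 were called. Among 39 ribosome biogenesis genes, 8 were higher and 4 lower in Plcg2HET against WT, led by Polr1a, the largest subunit of RNA polymerase I, at 0.63 (SE 0.10, adjusted p = 0.000271). In Trem2KO 2 were higher, among them Polr1a (0.51, SE 0.10, adjusted p = 0.000895), and 4 lower, and in Plcg2KO 1 was lower. That gene was Taf1d, of the polymerase I initiation factor, at -0.46 (SE 0.13, adjusted p = 0.0170), and it stood at -0.73 in Trem2KO (SE 0.13, adjusted p = 0.000319). Rn45s itself differed by -0.46, -0.21 and 1.09 against WT with standard errors above 0.8 and was not called.

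Genes of growth control were counted in the same way and beside the same shares of all genes. Of 17 mTOR and Myc genes, 2 were higher and 1 lower in Plcg2KO against WT, 5 and 2 in Trem2KO, and 4 and 1 in Plcg2HET. Rps6kb2, an S6 kinase, stood at -0.77 in Plcg2KO (SE 0.14, adjusted p = 0.000299), Rptor, the scaffold of mTOR complex 1, at 0.54 in Trem2KO (SE 0.10, adjusted p = 0.000468), and Eif4ebp2, a translation repressor, at 0.52 in Plcg2HET (SE 0.11, adjusted p = 0.00184). These comparisons share the WT libraries. Rps6kb2 was also called lower in Trem2KO (-0.56, adjusted p = 0.00524) and Plcg2HET (-0.38, adjusted p = 0.0493). Eif4ebp2 was also called higher in Plcg2KO (0.53, adjusted p = 0.00123) and Trem2KO (0.41, adjusted p = 0.00893). Rptor was also called higher in Plcg2HET (0.36, adjusted p = 0.0119) but not in Plcg2KO (0.19, adjusted p = 0.223). Of 13 p53 targets, 1 was higher in Plcg2KO, 1 higher and 1 lower in Trem2KO and 4 higher in Plcg2HET. Cdkn1a, which stops the cell cycle, stood at 0.54 in Plcg2KO (SE 0.13, adjusted p = 0.00589), Sesn2, a stress-induced inhibitor of mTOR complex 1, at 0.57 in Trem2KO (SE 0.11, adjusted p = 0.000941) and Zmat3, an RNA-binding protein, at 0.46 in Plcg2HET (SE 0.09, adjusted p = 0.00132). Cdkn1a and Sesn2 were also called higher in Plcg2HET (0.49 each, adjusted p = 0.00898 and 0.00364). Neither was called in the remaining knockout, with Cdkn1a at 0.17 in Trem2KO and Sesn2 at 0.27 in Plcg2KO. Zmat3 was called in neither knockout (0.22 in Plcg2KO and 0.21 in Trem2KO). Of 8 snoRNA host genes, 1 was lower in Plcg2HET (Snhg1 at -0.36, SE 0.10, adjusted p = 0.0139) and 0 were called in either knockout. Between the knockouts, Rps6kb1, the other S6 kinase, stood at 0.51 (SE 0.12, adjusted p = 0.00933), Btg2 at -0.87 (SE 0.21, adjusted p = 0.0113) and the initiation factor Eif3a at 0.40 (SE 0.13, adjusted p = 0.0379).

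Other lists followed the common level to different degrees, and not in the order of their exon lengths alone. The median deviation of 77 mitochondrial ribosomal protein genes (median exon length 1053 bases) followed that of the members at r = 0.912, and that of 75 nuclear oxidative phosphorylation genes (659 bases) at r = 0.956, over 24 libraries. For the 24 translation factors and TOP genes (2061.5 bases) r was 0.880, for the 39 biogenesis genes (2623 bases) 0.341 and for the 8 snoRNA host genes (603 bases) 0.550. For the mTOR and Myc genes (2882 bases) and the p53 targets (3083 bases) it was -0.302 and -0.228. Against WT, the mitochondrial ribosomal genes had 2, 0 and 0 called higher and 0, 3 and 5 lower in Plcg2KO, Trem2KO and Plcg2HET, against 5.44%, 7.56% and 10.9% of all genes higher and 7.63%, 8.16% and 7.13% lower. Mrpl1 stood at 0.37 in Plcg2KO (SE 0.09, adjusted p = 0.00733), Mrpl47 at -0.37 in Trem2KO (SE 0.10, adjusted p = 0.0107) and Mrps9 at -0.32 in Plcg2HET (SE 0.08, adjusted p = 0.00804). The oxidative phosphorylation genes had 1, 0 and 1 higher and 0, 0 and 6 lower, beside the same shares of all genes. Atp5s stood at 0.37 in Plcg2KO (SE 0.08, adjusted p = 0.00260) and -0.34 in Plcg2HET (SE 0.08, adjusted p = 0.00481). Between the knockouts Atp5s stood at 0.29 (SE 0.08, adjusted p = 0.0207), Mrpl50 at 0.45 (SE 0.11, adjusted p = 0.0133) and the assembly factor Ltv1 at 0.33 (SE 0.09, adjusted p = 0.0168).

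Cell type markers were read beside these values. Of 10 microglia markers, 10 were lower in Plcg2KO and 9 in Trem2KO against WT, beside 7.63% and 8.16% of all genes tested, and their summed level was 974 to 1664 CPM in WT, 648 to 923 in Trem2KO, 516 to 846 in Plcg2KO and 1003 to 1749 in Plcg2HET. Their median deviation followed that of the members at r = 0.245 over the 24 libraries, that of 8 excitatory neuron markers at -0.552 and that of 6 oligodendrocyte markers at 0.408. For inhibitory neuron, astrocyte and endothelial markers r was -0.240, -0.178 and 0.076. Choroid plexus and ependymal markers stood at 0.270, striatal and hippocampal neuron markers at 0.085, and the 1 blood marker tested at 0.235. Excitatory neuron markers summed to 4284 to 6228 CPM in WT, 6058 to 6316 in Trem2KO, 5138 to 6150 in Plcg2KO and 5737 to 7267 in Plcg2HET. Of 6 endothelial markers, 5 were called lower in Plcg2KO and 0 in Trem2KO against WT, beside the same shares of all genes. In Plcg2HET 1 of these 6 was called higher and 2 lower, beside 10.9% and 7.13% of all genes. Of 5 blood markers, 4 had 0 counts in all libraries, and the 1 tested reached at most 1.95 CPM. Rpl26 and Rps27rt also had 0 counts although their expected counts were above 0, so these zeros do not show that blood is absent. The part of cell composition in the level of the members was not tested.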

How the data were processed

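RNA from 24 cortices was extracted with a PureLink kit and made into libraries with a KAPA mRNA HyperPrep kit, per the labels' protocols. The authors deposited whole-number counts per gene with exon coordinates, per the file headers, and STAR 2.7.10a, featureCounts 2.0.3 and the build mm10 are listed in the submitters' processing notes. A second table deposited by the authors holds expected counts, TPM, FPKM and effective lengths, per the file headers, and no source used here names the tool that made it. Expected counts were rounded for an alternative fit. Deposited TPM and FPKM entered no test.

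Counts were fitted with edgeR 4.0.16 in R 4.3.3 (quasi-likelihood, robust, TMM scaling, filterByExpr with a minimum count of 10, 16316 genes, genotype plus sex, Benjamini-Hochberg adjustment). CPM by group is TMM-scaled, and CPM per kb and shares use the plain totals. The fit was tested on simulated data. Each library is 1 mouse. GC content came from GENCODE transcripts for 16246 genes (99.6%), and promoters from RefSeq. Alternatives were RLE scaling, no count filter, a fit without sex, a block by replicate code, only the 2 groups compared, DESeq2 1.42.0, expected counts, GC and length offsets fitted without members, no libraries above 5% Rn45s, and each library left out. A fit without libraries with a length trend beyond 0.4 was added after seeing the data.

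Named members were, in each comparison, up to 4 with the smallest p in each direction among those called, the 4 highest and 4 lowest per kb, the paralogs with their parents, and 8 with known roles. For each pathway list the called gene with the smallest p was named. A few genes are counted in the totals but not reported here by name. The members and lists were chosen with earlier results of these data known. Intervals and floors cover counting error only and none is printed.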

Additional observations from a re-analysis of the deposited data

Results flagged for a closer look

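Among 148 groups of 6 libraries examined, over library measures and named members, 6 had 1 library far from the other 5, and chance flags about 1 in 20. For the share of Rn45s these were WT F1 at 9.59% (others 1.31% to 2.69%), Trem2KO F1 at 0.334% (others 2.34% to 3.50%) and Plcg2HET F3 at 29.0% (others 0.723% to 5.29%). Among members, Rps14 stood at 229.6 CPM in Plcg2KO F1 against 346 to 412 in the other Plcg2KO libraries. Rps23 stood at 120.8 CPM in Plcg2KO M3 against 172 to 192. Rpl22l1 stood at 58.5 CPM in Plcg2HET M1 against 22.1 to 32.9.

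Signal was also present for a pair of ribosomal protein genes outside the members. Rpl26 and Rps27rt had 0 counts in every library in the count table, while the median expected count in the authors' second table was 1119 and 6814.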

How the results depend on the processing

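The number of members called was small and moved with most settings. In Plcg2KO against WT, 1 was called in the reported fit, against 0 with RLE scaling and without libraries above 5% Rn45s, 2 without the sex term, 3 with only the 2 groups compared and with DESeq2, 10 without the 4 libraries with a length trend beyond 0.4, and 0 to 3 with 1 library left out. In Trem2KO against WT, 4 became 8 with only the 2 groups, 2 without libraries above 5% Rn45s, 18 without the 4 libraries, and 1 (without WT F1) to 6 (without Plcg2HET M1) with 1 library left out. In Plcg2HET against WT, 5 became 3 with RLE scaling and with no count filter, 0 with only the 2 groups and without libraries above 5% Rn45s, 38 without the 4 libraries, and 1 to 15 with 1 library left out. In Plcg2KO against Trem2KO, 1 became 16 with only the 2 groups, 2 with DESeq2 and without libraries above 5% Rn45s, 0 with GC and length offsets, 12 without the 4 libraries, and 1 to 3 with 1 library left out. The shares of all genes called under these settings are not given here, apart from the fit without the 4 libraries. These counts are therefore not read as results about the members. Without the 4 libraries the shares were higher than in the reported fit in every comparison but Trem2KO against WT. Between the knockouts they were 18.4% called higher and 16.3% called lower, against 7.63% and 8.82%. The cause of the changes in member counts was not tested.

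Without the 4 libraries, a setting chosen after seeing the data, the median log2 fold change turned from -0.10 to 0.16, from -0.15 to 0.11 and from -0.15 to 0.33 against WT in Plcg2KO, Trem2KO and Plcg2HET. With expected counts the share of counts was 2.16 ± 0.59% in WT, 1.96 ± 0.17% in Trem2KO, 1.91 ± 0.14% in Plcg2KO and 1.80 ± 0.58% in Plcg2HET (mean ± SD, n = 6).

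The labels do not say that a replicate code links mice of different groups. Over 33 same-code pairs of libraries the correlation of deviations had a median of 0.128 and ran from -0.190 to 0.376, with 20 over 0.1. Over 183 pairs with different codes the median was -0.016, with 36 over 0.1. Same-code pairs also share sex, which was not removed from these deviations. The codes were not taken to pair the mice, because the labels state no pairing. These values cannot exclude that same-code libraries share a batch, which was not tested. With the replicate block 0, 3, 3 and 1 members were called, in the order of comparisons above, also without a share of all genes given here.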
